A study of Mus musculus with 6 samples.

Results

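A set of 10 Notch genes was described across the cells of the mouse brain vasculature and its neural neighbours. The members were chosen as a list of symbols, and each was found once in the gene lists of all 6 libraries. They comprised 3 ligands (*Dll4*, *Jag1* and *Jag2*), 3 receptors (*Notch1*, *Notch3* and *Notch4*) and 4 target or feedback genes (*Hey1*, *Heyl*, *Hes1* and *Nrarp*), among 27514 gene identifiers shared by both annotations used.

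The single-cell RNA sequencing (scRNA-seq) data came from 2 preparations of female wild type C57Bl/6J mice. Prep 1 was cortex of mice aged 3 weeks and prep 3 was hippocampus of mice aged 5 weeks, and the labels name no transgene and no treatment. White matter was trimmed off, the tissue was digested with dispase II, papain and DNase I, and myelin was removed in Percoll. In each preparation the cells of 3 mice, dissociated separately, were then pooled into 1 suspension and run as 3 technical replicates, so each region is 1 biological sample. No test between conditions was possible and no p-value is given. Region, age, preparation and gene annotation (31053 genes listed in cortex, 27998 in hippocampus) cannot be told apart. SDs are over the 3 libraries of a preparation (n = 3) and cover technical error only.

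Notch signalling passes between touching cells. A ligand of the Delta-like or Jagged family on one cell binds a Notch receptor on its neighbour, the receptor is cut, and its intracellular part enters the nucleus and activates target genes together with the DNA-binding protein RBPJ. In blood vessels the pathway is known for setting arterial against venous identity, for limiting sprouting and for the upkeep of the muscle-type cells of the vessel wall, in which NOTCH3 is the main receptor. In the developing brain it keeps neural precursors undifferentiated through the repressors of the Hes family. VSMCs (vascular smooth muscle cells) and pericytes are the mural cells, which wrap arteries and capillaries.

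The members lie on several mouse chromosomes of the GRCm38 build and are all protein coding. *Dll4* is at chr2:119325784-119335962 on the plus strand, *Jag1* at chr2:137081456-137116644 on the minus strand and *Jag2* at chr12:112907819-112929776 on the minus strand. *Notch1* is at chr2:26457903-26516663, *Notch3* at chr17:32120820-32166852 (both minus strand) and *Notch4* at chr17:34564268-34588503 (plus strand). *Hey1* is at chr3:8663359-8667256 (minus strand), *Heyl* at chr4:123233556-123249875, *Hes1* at chr16:30064384-30067796 and *Nrarp* at chr2:25180758-25183339 (all plus strand). No member shares exon bases with another gene on its own strand in GENCODE release M21, while *Notch1*, *Notch3*, *Dll4* and *Nrarp* each overlap exons of genes on the opposite strand.

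RefSeq promoter windows on GRCm38.p6 were found for 7 of the 10 members, and the 250 bases before the start of transcription were searched on both strands. None was found for the target genes *Hey1*, *Heyl* and *Hes1*, so their promoters were not searched. The core of the RBPJ motif, TGGGAA, was in 0 of the 7 windows, against 21.6% of 32851 promoters. The class C site CACGCG, which Hes proteins are known to bind, was in 2 (*Dll4* and *Jag1*), against 7.62% of all promoters, and the E-box CACGTG, which Hey proteins are known to bind, was in 1 (*Nrarp*), against 6.02%. The last 2 motifs were chosen after the sequences had been read, and none of the 3 overlaps another in these windows. The windows of *Dll4*, 1 of the 3 ligands with a called arterial to venous difference in both regions, and *Nrarp*, a feedback inhibitor of the pathway, are shown because their starts coincide with those of the annotation. Capitals mark CACGCG in the first (chr2:119325534-119325783, plus strand) and CACGTG in the second (chr2:25180508-25180757, plus strand).
Dll4: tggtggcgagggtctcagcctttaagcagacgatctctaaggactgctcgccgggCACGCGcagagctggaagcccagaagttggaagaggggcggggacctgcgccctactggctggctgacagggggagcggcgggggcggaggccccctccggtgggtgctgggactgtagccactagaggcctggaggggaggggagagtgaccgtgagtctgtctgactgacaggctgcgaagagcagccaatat
Nrarp: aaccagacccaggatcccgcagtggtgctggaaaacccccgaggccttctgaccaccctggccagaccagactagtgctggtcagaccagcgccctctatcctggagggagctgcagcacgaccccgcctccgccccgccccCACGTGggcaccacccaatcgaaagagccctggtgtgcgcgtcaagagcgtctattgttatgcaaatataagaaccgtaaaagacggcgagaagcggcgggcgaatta

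Of 33273 deposited barcodes 27530 were kept, 13320 from cortex and 14210 from hippocampus. Library totals ranged from 39662203 to 50024850 unique molecular identifiers (UMIs). Cells were clustered without the 10 members and without 42 other Notch pathway genes, and clusters were named from marker genes. The suffix "-like" marks these names. Scrublet called 638 doublets in cortex and 581 in hippocampus, which stayed in. Barcodes found in more than 1 library numbered 83 in cortex and 926 in hippocampus. Most of the latter were shallow choroid plexus-like barcodes, and leaving all shared barcodes out moved no count of calls reported here by over 1.5 times. Endothelial-like cells numbered 2691 in cortex and 2071 in hippocampus and fell into 18 joint clusters, 9 of which were given no segment name. Of the 9, 4 carried markers of another class (astrocyte, pericyte, microglia or erythroid), 2 were led by genes of another class, 2 held too small a part of any segment's marker list and 1 had fewer than 3 markers. They held 1403 cortical and 1059 hippocampal cells, which stayed in the whole endothelial-like class. Arterial-like cells numbered 262 in cortex and 318 in hippocampus, capillary-like cells 555 and 433, venous-like cells 360 and 222, and angiogenic-like cells 111 and 27.

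Levels are in CPM, the usual depth-scaled unit of counts, that is the UMIs of a gene summed over all cells of a class and divided by the class's total UMIs. The 95% intervals on them are exact Poisson intervals, those on ratios are exact intervals for 2 Poisson rates, and both cover counting error only. A bound given "by the interval" is a bound for counting error only. Libraries can spread more widely: cortical astrocyte-like *Hes1* was 156, 105 and 101 CPM, with an interval of 116 to 127. A difference between classes was called where the ratio of CPM, with 5 CPM added to both sides, was at least 2 and lay on the same side in all 3 libraries (or, between regions, where the libraries of the 2 regions did not overlap). It was tried for genes with at least 10 UMIs over the classes compared. Counts are read against the share of all such genes that met the same rule in the same direction with the same cells.

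Pericyte-like and progenitor-like cells of the cortex carried markers of other cell types. The cortical pericyte-like cells took 1.31% of their UMIs from 14 endothelial marker genes, against 0.0981% in hippocampus. In the cortex all 14 markers were over 20 CPM in these cells and summed to 12117 to 13952 CPM per library, and in hippocampus 8 of 14 were and they summed to 901 to 1045 CPM. Of 347 cortical pericyte-like cells 178 took over 1% of their UMIs from these genes, and 0 of 403 in hippocampus. A hippocampal cluster of 180 cells with 14 endothelial and 11 pericyte markers was left unnamed, so it is outside the pericyte-like class. It took 1.55% of its UMIs from endothelial markers, with 161 cells over 1% and a median of 15262 UMIs. The contrast between regions therefore holds for the classes as named here only. "Progenitor-like" is short for neural progenitor or immature neuron, and the largest such cluster in hippocampus was led by *Neurod1*, *Igfbpl1*, *Sox11*, *Calb2* and *Dcx*, genes of immature neurons. The cortical progenitor-like cluster held 123 cells, of which 62 were named neural progenitor or immature neuron by their own marker UMIs, 22 T or NK cell and 20 endothelial. It was also a cycling cluster, with 8 cycling markers and *Top2a*, *Pclaf*, *Mki67* and *Birc5* among its leading genes. Its 8 monocyte or neutrophil markers summed to 354 to 12122 CPM per library. In hippocampus 355 of 431 progenitor-like cells were named so by their own markers, and 4 of the 8 monocyte or neutrophil markers were at 0. Cycling markers numbered 1 in the hippocampal progenitor-like clusters of 329 and 49 cells and 7 in that of 53 cells.

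**Figure D1:**
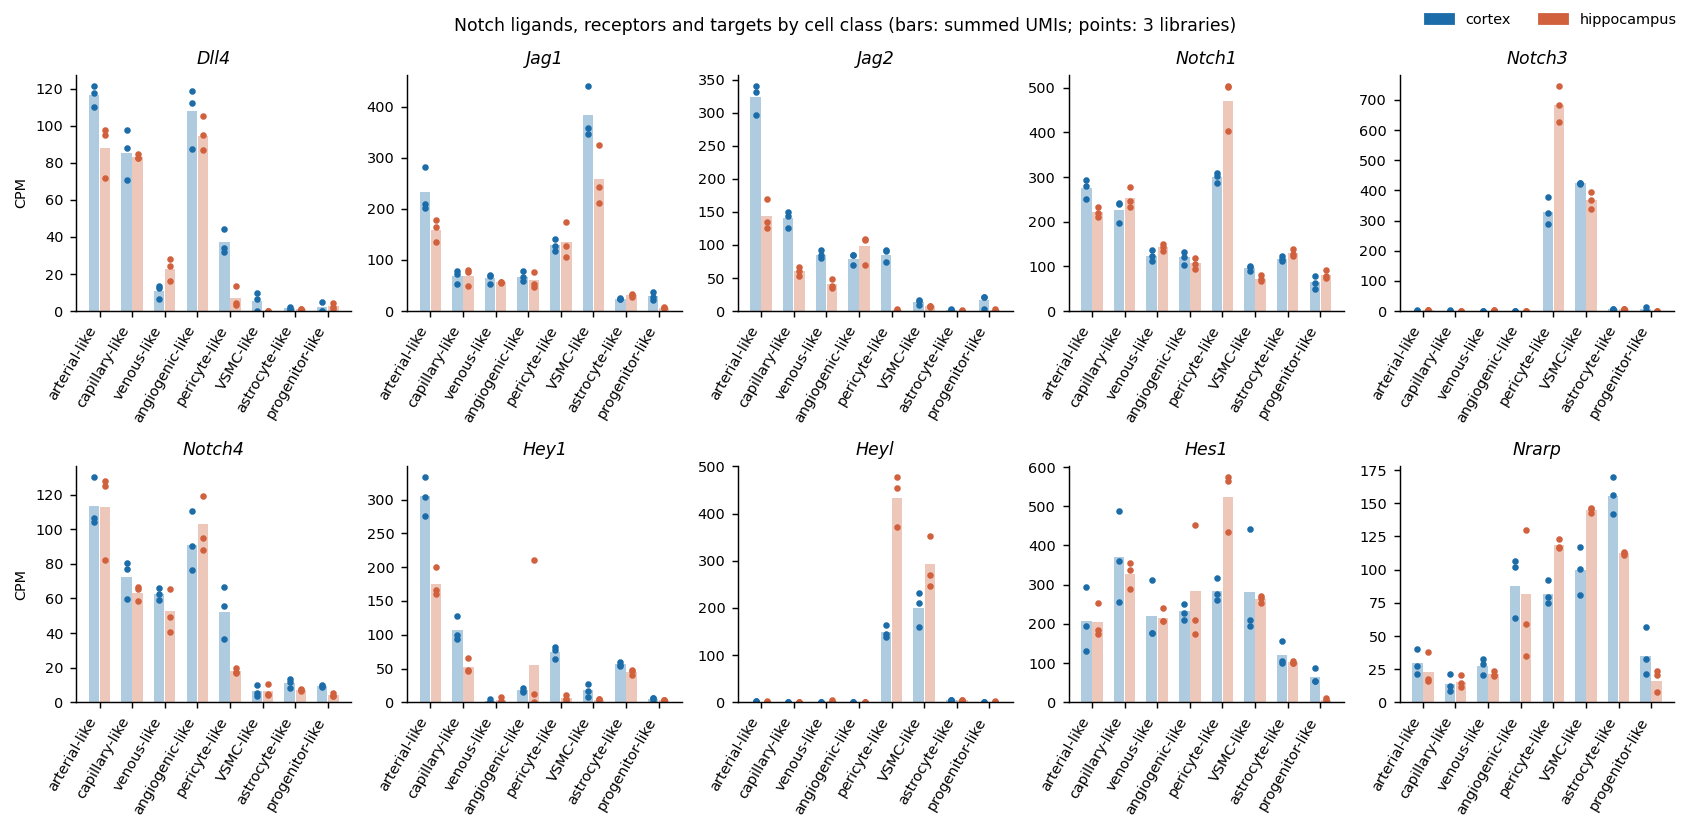
Level of each member in CPM (y axis, linear, its own scale per gene) in 8 cell classes of cortex (blue) and hippocampus (orange). Bars give the CPM of summed UMIs and points the 3 libraries. *Hey1* stands near 305 CPM in cortical arterial-like cells and near 2 in venous-like cells, and *Notch3* and *Heyl* rise above 100 CPM only in the 2 mural classes among the 8 drawn.

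Of the arterial-like, capillary-like and venous-like classes the first had the highest levels of the 3 ligands and *Hey1*, with overlapping *Dll4* libraries in hippocampus, and the second of *Hes1*. From capillary-like to arterial-like cells 3 of 8 members tested in cortex were called higher and 0 lower, where 3.46% and 1.62% of all genes tested were called. In hippocampus it was 3 of 9 higher and 0 lower, against 3.02% and 1.81%. The 3 were *Jag1*, *Jag2* and *Hey1* in both regions. From capillary-like to venous-like cells *Dll4* and *Hey1* were called lower in both regions, 2 of 8 members tested in each, against 0.89% of genes in cortex and 1.02% in hippocampus. None was called higher, against 1.43% and 1.28%. From venous-like to arterial-like cells 5 of 8 were higher in cortex, against 3.87%, and 5 of 9 in hippocampus, against 3.49%. None was lower, against 2.46% and 2.48%. *Dll4*, *Jag1*, *Jag2* and *Hey1* were in both sets, with *Notch1* the other in cortex and *Notch4* the other in hippocampus. The median log2 ratio of arterial-like over venous-like cells was 1.45 in cortex and 1.03 in hippocampus over the members tested, and 0.02 and -0.01 over all genes.

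*Hey1* encodes a transcriptional repressor of arterial endothelium. In cortical arterial-like cells it stood at 333, 304 and 275 CPM in replicates 1 to 3, in capillary-like cells at 128, 99.7 and 94.2, and in venous-like cells at 4.91, 0.638 and 0.676. The 3 groups of libraries did not overlap, and the lowest arterial-like library was well above the highest capillary-like one. Arterial-like cells were 2.83-fold over capillary-like cells (95% interval 2.48 to 3.23) and 152-fold over venous-like cells (79.4 to 333). In hippocampus the arterial-like libraries stood at 200, 167 and 161 CPM, the capillary-like ones at 46.4, 47.4 and 65.3, and the venous-like ones at 7.69, 0 and 2.82. The order was as in cortex, again with no overlap. The ratio was 3.31 (2.70 to 4.09) to capillary-like cells and 49.0 (25.6 to 108) to venous-like cells. Only 9 *Hey1* UMIs were counted in the venous-like cells of each region, so the upper ends of these ratios are loose. After each hippocampal cell was thinned to 1000 UMIs, 15.4% of arterial-like and 0.450% of venous-like cells held a *Hey1* UMI, against 0.0688% of microglia-like cells, which should lack it. Without thinning the shares were 60.4%, 3.15% and 0.378%, at median depths of 8053.5, 9897.5 and 6645 UMIs.

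*Dll4*, the Delta-like ligand of arteries and sprouting tips, separated venous-like from other endothelium rather than arterial-like from capillary-like. Its cortical levels were 118, 122 and 110 CPM in arterial-like, 88.0, 97.7 and 70.6 in capillary-like and 12.6, 6.38 and 13.5 in venous-like libraries. The arterial-like libraries lay above the capillary-like ones without overlap, at 1.37-fold (1.15 to 1.62), short of the 2-fold rule. The venous-like libraries lay far below both. Venous-like cells held 0.125 of the capillary-like level (0.0902 to 0.171). In hippocampus the levels were 98.0, 95.2 and 72.1 CPM, then 84.8, 82.7 and 82.7, then 16.5, 24.4 and 28.2, so arterial-like and capillary-like libraries overlapped and venous-like ones lay below both. There venous-like cells held 0.271 of the capillary-like level (0.198 to 0.367). The arterial-like over venous-like ratio was 10.9 (8.0 to 15.1) in cortex and 3.89 (2.91 to 5.28) in hippocampus.

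The Jagged ligands were called higher at the arterial end. Cortical *Jag1* stood at 202, 282 and 210 CPM in arterial-like libraries, 53.4, 79.3 and 71.6 in capillary-like and 71.5, 68.2 and 52.7 in venous-like ones. Capillary-like and venous-like libraries overlapped, and the arterial-like ones stood apart. The arterial-like ratio was 3.43 to capillary-like cells (2.93 to 4.04) and 3.64 to venous-like cells (3.15 to 4.21). In hippocampus the ratios were 2.31 (1.92 to 2.80) and 2.80 (2.32 to 3.41), from arterial-like libraries of 178, 135 and 164 CPM against 49.0, 75.9 and 81.2 in capillary-like ones. *Jag2* levels were lower with each step from artery to vein. It stood at 332, 341 and 296 CPM in cortical arterial-like, 144, 150 and 126 in capillary-like and 84.8, 79.7 and 91.8 in venous-like libraries, with no overlap between neighbours. In hippocampus all its levels were lower, at 126, 135 and 169 CPM, then 53.0, 61.0 and 66.7, then 48.4, 37.7 and 35.3, in the same order. Without replicate 1 the hippocampal *Jag1* log2 ratio of arterial-like over capillary-like cells was 0.89 in place of 1.15 and the call was lost, as it also was at endothelial clustering resolutions of 0.5 and 2. The *Jag2* call of arterial-like over capillary-like cells, at log2 ratios of 1.18 and 1.20, was lost in cortex at those resolutions (0.96 and 0.99) and with cells thinned to 1000 UMIs (0.89), and in hippocampus at a resolution of 0.5 (0.97) and with the mean of CPM per cell (0.87). At a resolution of 0.5 the *Jag1* call of arterial-like over venous-like cells was also lost in both regions (0.87 and 0.72).

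The receptors changed less along the tree. *Notch1*, the main endothelial receptor, stood at 251, 280 and 294 CPM in cortical arterial-like libraries, 239, 242 and 198 in capillary-like and 136, 122 and 112 in venous-like ones. Venous-like libraries lay below the others in cortex, and the same held in hippocampus at 143, 151 and 135 CPM. Arterial-like over venous-like cells gave 2.23 (1.99 to 2.5) in cortex, which was called, and 1.54 (1.35 to 1.76) in hippocampus, which was not. *Notch4*, a receptor largely restricted to endothelium, was highest in arterial-like cells of both regions, at 114 CPM ± 14.3 (SD, n = 3) and 113 CPM ± 25.3 (SD, n = 3). Its arterial-like over venous-like ratio was 1.81 (1.53 to 2.15) in cortex and 2.14 (1.75 to 2.64) in hippocampus. Without replicate 3 the hippocampal log2 ratio was 0.82 in place of 1.03 and was not called. *Notch3* and *Heyl* were at most 3.36 and 1.98 CPM in any of the 3 segments.

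*Hes1*, a repressor that many signals besides Notch are known to induce, was highest in capillary-like cells of the 3 segments, at 489, 360 and 256 CPM in cortex and 337, 355 and 289 in hippocampus. Arterial-like cells held 0.561 of the capillary-like level in cortex (0.504 to 0.624) and 0.622 in hippocampus (0.557 to 0.695), lower in 3 of 3 libraries of each region, a difference that fell short of the 2-fold rule. In cortex replicate 1 was the highest of the 3 libraries in all 9 classes examined (the 8 drawn and microglia-like cells), while in hippocampus replicates 1 to 3 led in 1, 5 and 3 classes. *Nrarp*, whose protein binds the receptor's intracellular part and damps signalling, was low in all 3 segments, between 14.1 and 30.03 CPM in cortex and between 15.6 and 23.2 in hippocampus. In angiogenic-like cells it stood at 63.8, 102 and 106 CPM in cortex, above every library of the 3 segments. The 27 hippocampal angiogenic-like cells gave 130, 59.3 and 35.1 CPM, too few cells for a firm level. They also gave 0, 11.9 and 211 CPM of *Hey1*, where 1 library sets the class's value.

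Single endothelial clusters spread further than the segment means. One arterial-like cluster of 36 cells, led by the matrix genes *Mgp*, *Eln* and *Fbln5*, held *Jag1* at 460 CPM (361 to 577) in cortex and 587 CPM (487 to 702) in hippocampus, against 228 and 139 in the larger arterial-like cluster of 283 cells. Its *Hes1* was 49.7 CPM (21.5 to 98.0) and 92.2 CPM (55.5 to 144), against 212 and 193. It held 15 cells in cortex and 21 in hippocampus. In the venous-like cluster of 125 cells *Hey1* was 0.927 CPM in cortex, from 1 UMI, and 0 in hippocampus, where 3 UMIs would be 5.89 CPM. *Notch1* was highest among the cortical clusters in a capillary-like one of 362 cells, at 406 CPM, and at 356 CPM in hippocampus, where only 12 fenestrated-like cells were higher. These capillary-like cells were shallow, with a median of 3294.5 UMIs in cortex.

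**Figure D2:**
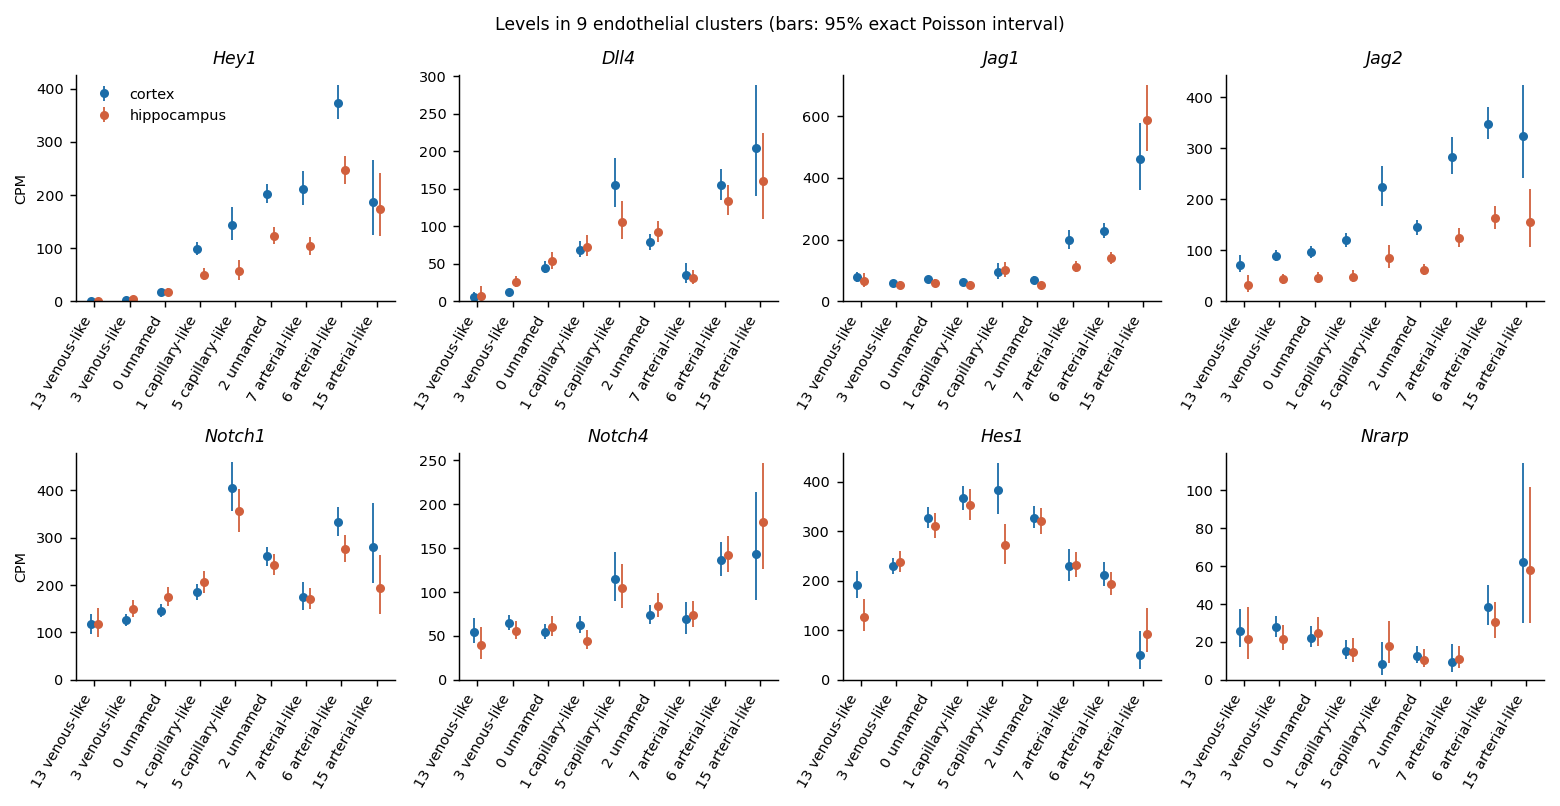
Level of 8 members in CPM (y axis, linear) in 9 endothelial clusters ordered by hand from venous-like to arterial-like, cortex in blue and hippocampus in orange. Points give summed UMIs and bars the 95% exact Poisson interval. Of the 9, *Hey1* is highest in the arterial-like cluster of 283 cells, at 373 CPM in cortex and 247 in hippocampus, and lowest in the venous-like cluster of 125 cells, *Jag2* is highest and lowest in the same 2 clusters, at 348 and 163 CPM against 72.3 and 31.4, and *Jag1* peaks in the 36-cell arterial-like cluster.

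Mural-like cells differed from endothelial-like cells in ligands, receptors and targets. Over endothelial-like cells 4 of 10 members were called higher in cortex, against 8% of all genes, and the same 4 in hippocampus, against 10.4%. They were the receptor *Notch3*, its target *Heyl*, the ligand *Jag1* and the inhibitor *Nrarp*. *Dll4* and *Jag2* were called lower in cortex, 2 of 10 against 3.72%, and these with *Notch4* and *Hey1* in hippocampus, 4 of 10 against 9.96%. Without the mural-like cells over 1% endothelial marker UMIs the cortical set of lower genes became the same 4, against 9.46%, and the higher set stayed, against 10% of genes.

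*Notch3* stood at 395, 358 and 340 CPM in cortical mural-like libraries and at 586, 523 and 572 in hippocampal ones. Endothelial-like libraries lay between 2.08 and 5.12 CPM over both regions, far below. The ratio was 136 in cortex (106 to 177) and 132 in hippocampus (103 to 171). *Heyl*, a Hey family repressor, stood at 190, 150 and 166 CPM and at 331, 413 and 389, against 0.649 to 2.84 in endothelial-like libraries. Its ratio was 130 (90.9 to 192) and 157 (114 to 223). *Jag1* was 2.58-fold over endothelial-like cells in cortex (2.41 to 2.76) and 2.38-fold in hippocampus (2.15 to 2.63). The hippocampal call, at a log2 ratio of 1.20, was lost with endothelial-like cells of named segments only (0.88) and with the mean of CPM per cell (0.99). Arterial-like cells alone held more *Jag1* than pericyte-like cells in cortex, at 233 against 130 CPM, without overlap. In hippocampus they held 158 against 135 CPM, with overlapping libraries. *Nrarp* was 3.02-fold (2.69 to 3.38) and 5.32-fold (4.62 to 6.14).

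Between the 2 mural classes *Notch1* gave the clearest difference. In cortex it stood at 287, 309 and 303 CPM in pericyte-like and 102, 99.2 and 89.9 in VSMC-like libraries. In hippocampus it stood at 403, 504 and 500 and at 71.3, 68.2 and 79.7. Pericyte-like libraries were higher throughout with no overlap. VSMC-like cells held 0.323 of the pericyte-like level in cortex (0.278 to 0.373) and 0.155 in hippocampus (0.123 to 0.193). Without the cortical pericyte-like cells over 1% endothelial marker UMIs, pericyte-like *Notch1* was 329, 388 and 314 CPM and the call stayed.

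*Jag1* went the other way. It stood at 358, 346 and 441 CPM in cortical VSMC-like and 128, 141 and 119 in pericyte-like libraries, and at 212, 243 and 324 against 127, 105 and 175 in hippocampus. VSMC-like libraries were higher in both regions with no overlap. The ratio was 2.96 (2.65 to 3.30) in cortex, which was called, and without the 178 cells pericyte-like *Jag1* was 139, 140 and 135 CPM and the call stayed. It was 1.91 (1.62 to 2.27) in hippocampus, which fell short of 2-fold.

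In all, VSMC-like over pericyte-like cells gave 1 of 10 members higher in cortex, against 5.71%, and 5 lower, against 13.1%. The 5 were *Notch1*, *Notch4*, *Dll4*, *Jag2* and *Hey1*. With the 178 pericyte-like cells left out only *Notch1* and *Notch4* of these 5 stayed called, 2 of 10 against 12.6%, and *Jag1* stayed the 1 higher, against 6.19%. In hippocampus 0 were higher, against 6.37%, and 3 lower (*Notch1*, *Notch4* and *Dll4*), against 18.4%. No *Dll4* UMI was seen in 84 hippocampal VSMC-like cells, where 3 counts would be 2.45 CPM. With counting error on both sides, the interval put *Dll4* at least 1.98-fold lower there than in pericyte-like cells. Without replicate 3 its log2 ratio was -0.83 in place of -1.25, and the call was lost with the lower count. *Notch4*, at 0.362 of the pericyte-like level (0.145 to 0.796), was at the edge of the rule with 5 CPM added and was not called without replicate 1 (log2 ratio -0.92) or replicate 2 (-0.91). The share of all genes called lower was high here, and the VSMC-like cells there were also deeper, with a median of 13363.5 UMIs per cell against 4749.

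*Notch3* and *Heyl* changed sides between regions. *Notch3* stood at 423, 420 and 426 CPM in cortical VSMC-like and 377, 326 and 288 in pericyte-like libraries. In hippocampus it stood at 340, 368 and 396 in VSMC-like and 747, 628 and 682 in pericyte-like ones. Libraries did not overlap in either region, but the order reversed. Without the 178 cells cortical pericyte-like *Notch3* was 667, 611 and 547 CPM, above the VSMC-like libraries as in hippocampus. Cortical *Heyl* stood at 232, 160 and 210 CPM in VSMC-like and 164, 145 and 139 in pericyte-like libraries, which overlapped, and without the 178 cells the pericyte-like libraries were at 288, 342 and 248, above the VSMC-like ones. In hippocampus pericyte-like *Heyl* libraries (371, 454 and 477 CPM) lay above the VSMC-like ones (271, 352 and 247).

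**Figure D3:**
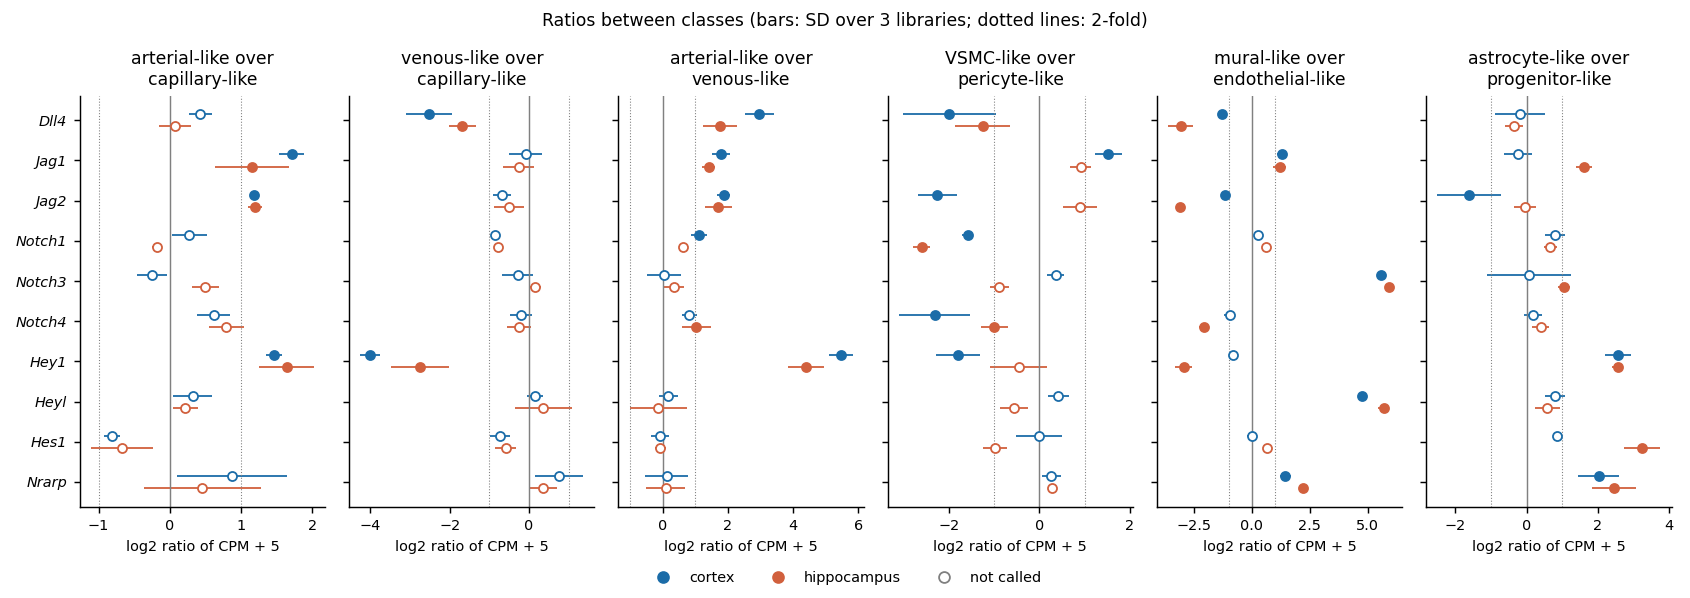
Log2 ratio of each member between cell classes (x axis, 5 CPM added to both sides), 1 panel per comparison, cortex in blue and hippocampus in orange. Filled points were called, open points were not, bars are the SD over 3 libraries and dotted lines mark 2-fold. *Hey1* lies furthest from 0 in the arterial-like over venous-like panel, at 5.47 in cortex and 4.39 in hippocampus.

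Pericyte-like cells were also compared between regions. The unnamed hippocampal cluster with endothelial and pericyte markers was not part of this comparison. With all cells, hippocampus was called higher for 2 of 10 members (*Notch3* and *Heyl*), against 5.17% of genes, and lower for 4 of 10 (*Notch4*, *Dll4*, *Jag2* and *Hey1*), against 7.44%. Without replicate 3 *Notch3* was not called, at a log2 ratio of 0.96 in place of 1.05. The cells left in cortex without the 178 were 169, with a median of 4291 UMIs against 10452 for all 347, and they still took 0.346% of their UMIs from endothelial markers. In them *Dll4* was 6.33, 0 and 8.97 CPM, from 32.1, 44.2 and 34.3, and its log2 ratio between regions turned from -1.82 to 0.21. *Hey1* was 19.0, 10.5 and 26.9 CPM, from 76.8, 64.5 and 82.0, against 3.21, 4.58 and 11.6 in hippocampus. *Jag2* was 31.6, 10.5 and 15.0 CPM, from 90.3, 91.9 and 73.8, against 0, 3.05 and 1.66 in hippocampus, and was the only member of the 10 still called, 1 of 10 lower against 3.2% and 0 higher against 2.91%.

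**Figure D4:**
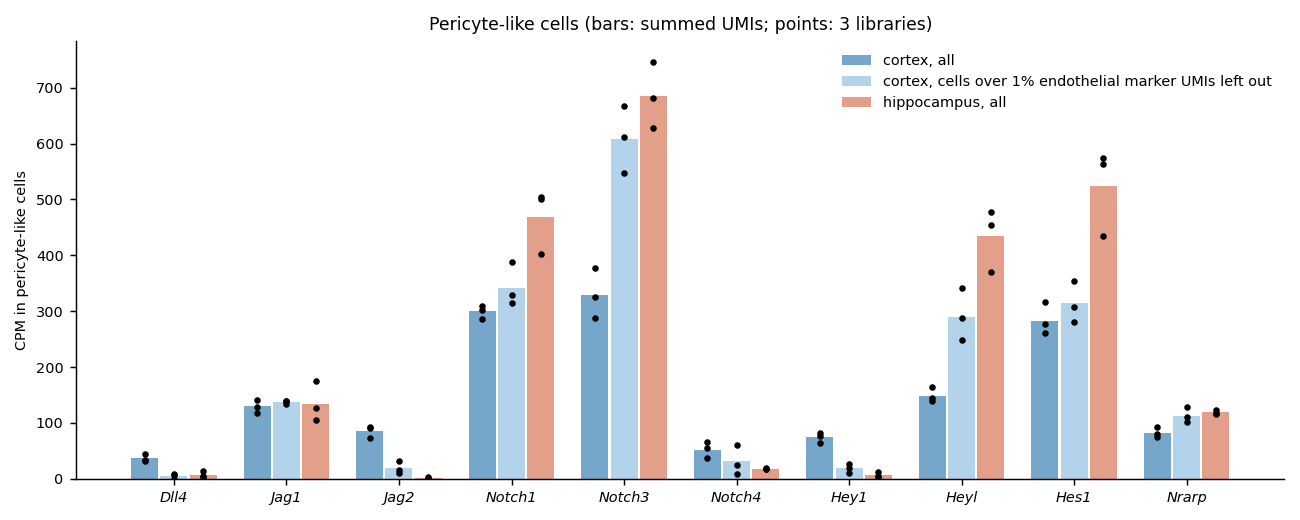
Level of each member in pericyte-like cells in CPM (y axis, linear). Bars give summed UMIs of all cortical cells (dark blue), of cortical cells without those over 1% endothelial marker UMIs (light blue) and of hippocampal cells (orange), and points the 3 libraries. *Notch3* rises from 329 to 607 CPM and *Jag2* falls from 85.3 to 19.2 CPM when the cells are left out.

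Between whole endothelial-like classes 0 of 10 members were called higher in hippocampus and 0 lower, against 0.837% and 0.692% of genes. *Jag2* came nearest. It stood at 140, 143 and 130 CPM in cortical and 69.0, 70.6 and 75.1 in hippocampal endothelial-like libraries, without overlap, and hippocampus held 0.519 of the cortical level (0.484 to 0.555), which was less than 2-fold with 5 CPM added. Within segments hippocampal *Jag2* libraries were at 126 to 169 CPM in arterial-like cells, against 296 to 341 in cortex. In capillary-like cells they were at 53.0 to 66.7 against 126 to 150, and in venous-like cells at 35.3 to 48.4 against 79.7 to 91.8. Angiogenic-like libraries of the regions overlapped. Calls between regions were not made within segments, and the segments' cell numbers differed between regions. In the whole classes *Hey1* was 98.7, 94.7 and 96.5 CPM against 76.2, 65.6 and 78.2, also without overlap. *Dll4*, *Notch4* and *Hes1* differed by a log2 ratio of at most 0.09. In astrocyte-like cells 0 were called in either direction, against 1.07% and 1.10%. The part of the differing gene annotations in these ratios, that of *Jag2* among them, was not tested.

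Astrocyte-like cells held *Notch1*, *Hey1*, *Hes1* and *Nrarp*. *Nrarp* stood at 142, 156 and 170 CPM in cortical and 111, 112 and 114 in hippocampal libraries. In cortex this was the highest of the 8 classes with no overlap with the next, and in hippocampus it lay below both mural classes. *Hey1* was 56.3 CPM ± 2.58 (SD, n = 3) in cortex and 45.3 CPM ± 4.06 (SD, n = 3) in hippocampus, above all venous-like libraries. *Dll4*, *Jag2*, *Notch3* and *Heyl* were at most 6.70 CPM in astrocyte-like cells of either region. A hippocampal astrocyte-like cluster led by *Fabp7*, *Tnc* and *Frzb* held *Hey1* at 6.02 CPM (1.96 to 14.1), against 46.3 CPM (42.4 to 50.5) in the main hippocampal astrocyte-like cluster, and *Notch1* at 178 CPM (151 to 209) against 130 (124 to 137).

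Against progenitor-like cells 5 of 10 members were called higher in hippocampal astrocyte-like cells, against 10.6% of genes, and 0 lower, against 18.8%. They were *Notch3*, *Jag1*, *Hey1*, *Hes1* and *Nrarp*. *Hes1* stood at 100, 105 and 100 CPM in astrocyte-like and 2.08, 10.0 and 5.66 in progenitor-like libraries. The groups lay far apart, at 16.1-fold (11.2 to 24.0). In the 355 cells named neural progenitor or immature neuron by their own markers it was 0.808 CPM, from 3 UMIs of 3715113, and the ratio was 126 (43.0 to 612). *Hey1* was 12.6-fold higher in astrocyte-like cells (7.83 to 21.9) and *Nrarp* 6.84-fold (5.45 to 8.70). *Notch1* differed less, at 138, 124 and 127 CPM against 77.6, 73.4 and 92.0, or 1.62-fold (1.45 to 1.81), higher in 3 of 3 libraries. With the 355 cells alone the same number of members, 5, was higher and 0 lower, against 14.2% and 19.4% of genes. *Hey1* was then 10.5-fold (6.42 to 18.5), *Nrarp* 8.52-fold (6.41 to 11.6), *Jag1* 8.86-fold (5.12 to 16.8) and *Notch1* 2.01-fold (1.75 to 2.31), the last not called. *Notch3* had 0 UMIs in them, and by the interval it was at least 6.61-fold higher in astrocyte-like cells. Its astrocyte-like level was only 6.70 CPM, against 684 in pericyte-like cells. With all progenitor-like cells its log2 ratio was 1.05, and the call was lost with cells thinned to 1000 UMIs.

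In cortex 2 of 10 were called higher (*Hey1* and *Nrarp*), against 13.5%, and 1 lower (*Jag2*), against 19.7%. The cortical progenitor-like cluster was a cycling one, and the part of cycling in this comparison was not tested. With only the 62 cells named by their own markers 6 met the rule as higher and 0 as lower, against 18.3% and 17.2%, but 3 of the 6 rest on too few UMIs for a direction. *Notch3* and *Heyl* had 0 UMIs of 426774 in these cells, where 3 counts would be 7.03 CPM, above their astrocyte-like levels of 5.93 and 5.01 CPM, and *Notch4* had 1 UMI (ratio 4.75, 0.842 to 188). *Hey1* was 8.02-fold higher in astrocyte-like cells (2.73 to 38.9), from 3 UMIs in the 62 cells, and *Nrarp* 7.38-fold (3.88 to 16.2). *Jag2* was left with 1 UMI. *Hes1* had 0 UMIs in the 62 cells, and by the interval it was at least 14.0-fold higher in astrocyte-like cells. In the whole cluster it was 87.6, 53.4 and 53.6 CPM.

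The order of classes was compared per gene. The highest class was the same in both regions for 5 of 10 members, namely arterial-like cells for *Notch4*, *Jag2* and *Hey1*, pericyte-like cells for *Notch1* and VSMC-like cells for *Jag1*. Without the 178 cortical pericyte-like cells it was 7 of 10, since pericyte-like cells then led for *Notch3* (607 CPM against 422 in VSMC-like cells) and *Heyl* (290 against 201) in cortex too, and the *Notch1* overlap with arterial-like cells was gone. Cortical *Notch1* libraries of the pericyte-like and arterial-like classes overlapped, as did those of *Notch4* in arterial-like and angiogenic-like cells of both regions. *Hey1* overlapped between arterial-like and angiogenic-like cells in hippocampus through 1 angiogenic-like library. *Jag2* and *Jag1* stood apart from the next class in both regions. For *Dll4* the arterial-like and angiogenic-like libraries overlapped in both regions, so which of them leads is not settled.

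The genes whose profiles were most like each member's were ranked by Pearson r of log2(CPM + 5) over 23 class by region profiles, among 11666 genes. This is a description over classes that share libraries and depth. *Notch3* was most like *Tbx2* (r = 0.99), *Rgs4* and *Ano1*, *Heyl* was most like *Foxs1* (r = 0.99), *Carmn* and *Ccdc160*, and *Jag2* was most like *Acer2* (r = 0.98), *Sox17* and *Gata2*. For *Dll4* the nearest were *8430408G22Rik* (r = 0.97), *Myct1* and *Magix*, for *Notch4* *Pqlc1* (r = 0.96), *Ifi44* and *1110034G24Rik*, and for *Jag1* *Tmem51* (r = 0.94), *Lamb2* and *Rasgrp2*. *Hes1* came nearest to *Dlc1* (r = 0.95), *Notch1* to *Pkn2* (r = 0.88) and *Nrarp* to *Rgs6* (r = 0.88). No gene came closer to *Hey1* than *Lurap1* (r = 0.78).

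The 42 other pathway genes were also compared within endothelium, where their counts of calls did not set them apart from all genes. Of 30 or 31 tested per comparison, 0 were called in either direction from capillary-like to arterial-like or to venous-like cells of either region. The shares of all genes called there ran from 0.89% to 3.46% per direction. From venous-like to arterial-like cells 1 was called, *Hey2*, higher in hippocampus, against shares from 2.46% to 3.87%. Their median log2 ratio there was 0.16 in cortex and 0.06 in hippocampus. Mural-like over endothelial-like cells gave 6 higher and 2 lower of 40 tested in cortex, against 8% and 3.72% of all genes, and 7 higher and 4 lower of 39 in hippocampus, against 10.4% and 9.96%. Called higher in both were *Notch2* (37.8 and 54.2 CPM, from 10.1 and 15.1), *Hey2* (94.6 and 122 CPM, from 1.21 and 2.35), the ubiquitin ligase genes *Neurl1b*, *Dtx3* and *Dtx4*, and *Aph1b* of the gamma-secretase that cuts the receptor. Lower in both were *Lfng* (25.7 and 2.58 CPM, from 63.0 and 50.1) and *Mfng* (27.6 and 3.87 CPM, from 79.1 and 92.1), which encode Fringe enzymes that add sugars to Notch. Without the mural-like cells over 1% endothelial marker UMIs, cortical mural-like *Lfng* was 7.83 and *Mfng* 8.15 CPM. The cortical counts were then 7 higher and 5 lower of 39 tested, against 10% and 9.46% of genes, and the genes named here stayed called. VSMC-like over pericyte-like cells gave 2 higher and 5 lower of 35 tested in cortex, against 5.71% and 13.1%, and 1 higher and 10 lower of 32 in hippocampus, against 6.37% and 18.4%. *Neurl1b* was higher in both, at 32.4 and 40.1 CPM from 9.87 and 10.1. *Adam10*, which encodes a protease that cuts Notch, was lower in both, at 50.5 and 27.8 CPM from 177 and 80.4, and so was *Dtx4*. Without the 178 cells cortical pericyte-like *Adam10* was 137 CPM and *Dtx4* 47.0, and both calls stayed, whereas *Neurl1b* was 18.1 and its call was lost.

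Astrocyte-like over progenitor-like cells gave 8 higher and 7 lower of 41 in cortex, against 13.5% and 19.7%, and 5 higher and 10 lower of 40 in hippocampus, against 10.6% and 18.8%. The effector *Hes5* stood at 361 and 328 CPM in astrocyte-like and 4.61 and 19.6 in progenitor-like cells. *Notch2*, *Dner*, *Lfng* and *Aph1c* were the others called higher in both regions. The Delta-like ligand gene *Dll1* went from 9.99 and 18.1 CPM in progenitor-like cells to 0.0576 and 1.10 in astrocyte-like cells, and *Dll3* from 15.4 and 41.1 to 0.115 and 0.368. *Hes6*, *Mfng*, *Neurl1b*, *Maml3* and *Fbxw7* were also lower in both. With the 62 cortical cells alone *Dll1* and *Aph1c* were not called, and the others named here were.

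**Figure D5:**
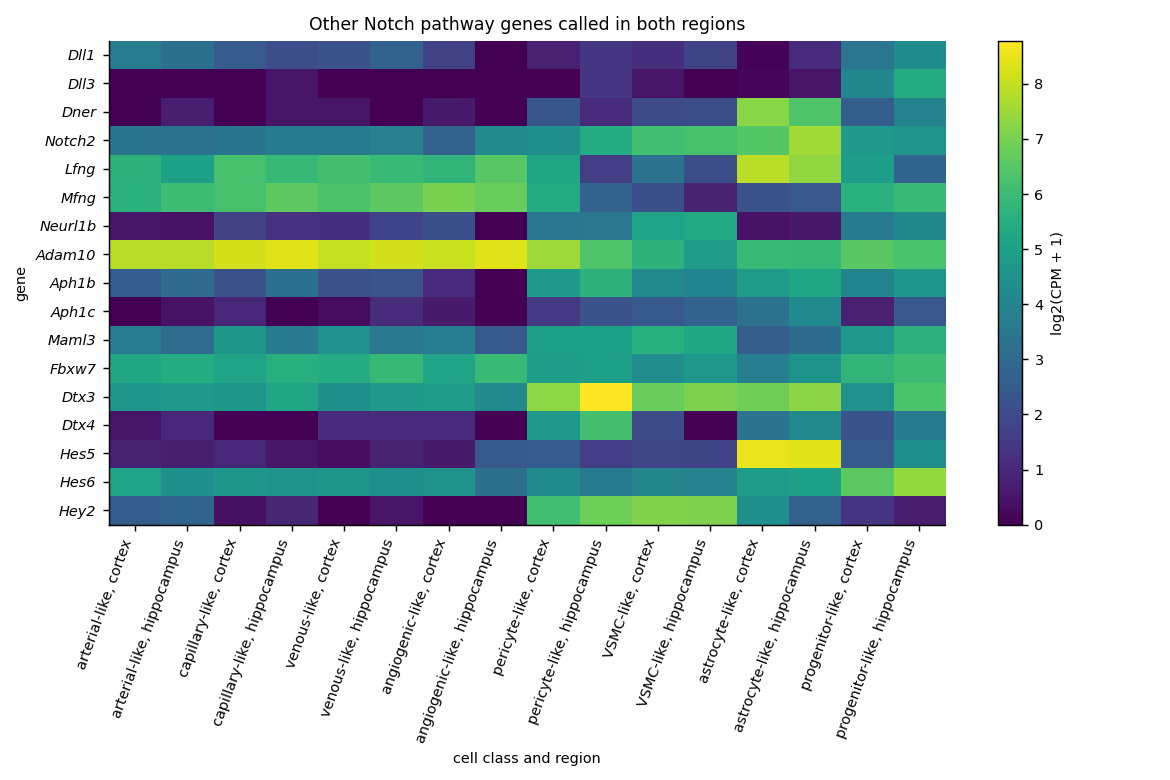
Heatmap of the other Notch pathway genes that were called in both regions in a mural or astrocyte comparison, as log2(CPM + 1) (colour) by gene (rows) and cell class and region (columns). *Hes5* and *Dner* stand out in the astrocyte-like columns, *Hey2* in the mural columns and *Dll3* in the progenitor-like columns.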

How the data were processed

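For each of the 6 libraries the authors deposited UMI counts per gene and barcode, not normalized. The paper and the labels name Cell Ranger 5.0.1 and mm10, whereas the matrix headers name 3.0.1 for cortex and 3.1.0 for hippocampus. Strand handling is not given in the sources used here. Prep 2 was not analysed here.

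Following the paper's settings, a barcode was kept when it had between 250 and 6000 genes and a mitochondrial share below 25%, or below 15% in vascular classes. Kept cells were log-normalized, integrated over libraries and clustered in Seurat 5.3.0 (R 4.3.3) with 30 components and resolution 0.5. Endothelial-like cells of all 6 libraries were clustered together at a resolution of 1. Log-normalized values were scaled in place of Pearson residuals, and SingleR was not used. Clusters were named from marker lists. The rule for naming endothelial segments was set after the clusters' markers had been seen and before any Notch value was read. Notch genes were kept out of clustering and marker lists. Summing, ratios and intervals used Python 3.11.15, numpy 2.4.6, scipy 1.17.1 and pandas 2.3.3, and Scrublet was run in scanpy 1.11.5.

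The members and lists were chosen with earlier results of these data known. All members are named with values, and of 42 other pathway genes those called in an endothelial, mural or astrocyte comparison in both regions. *Hey2*, called in 1, was named after its value was seen, as were the clusters singled out. With 1 biological sample per region no test was made. Counts for arterial over capillary cells were simulated with Poisson error only, with 10677 genes tested in cortex and 10852 in hippocampus. A small set of them, drawn from genes well expressed in capillary-like cells, was changed by a known fold. Of this set, 100% of genes changed 4-fold and 87% (cortex) or 83% (hippocampus) of those changed 2.5-fold met the call rule. These shares do not extend to low genes, such as *Notch3* and *Heyl* in endothelium. A class's total sets the precision: 3 UMIs correspond to 0.67 to 1.23 CPM in the 3 cortical segments and to 12.9 CPM in hippocampal angiogenic-like cells.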

Additional observations from a re-analysis of the deposited data

Results flagged for a closer look

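In 4 cases a member differed in opposite directions in the 2 regions, with every library of each region on its own side. These differences between regions were not tested, since each region is 1 biological sample. *Notch1* in arterial-like over capillary-like endothelium had a log2 ratio of 0.27 in cortex and -0.19 in hippocampus, both short of the 2-fold rule. The other 3 lie between VSMC-like and pericyte-like cells. *Notch3* had a log2 ratio of 0.36 in cortex and -0.89 in hippocampus, *Heyl* 0.42 and -0.56, and *Jag2* -2.26 and 0.91. The cortical pericyte-like cells took 1.31% of their UMIs from endothelial marker genes, against 0.0981% in hippocampus, and had a median depth of 10452 UMIs against 4749. The hippocampal class leaves out an unnamed cluster of 180 cells with endothelial and pericyte markers, at 1.55% and a median of 15262 UMIs. Without the 178 cortical pericyte-like cells over 1%, the cortical log2 ratio of *Notch3* was -0.52, that of *Heyl* -0.52 and that of *Jag2* -0.48, so *Notch3* and *Heyl* then had the hippocampal direction and *Jag2* kept its own. The cells left had a median of 4291 UMIs, so endothelial marker UMIs and depth changed together, and the cause was not tested. Hippocampal *Jag2* rested on 9 UMIs in VSMC-like and 3 in pericyte-like cells.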

How the results depend on the processing

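Of 57 calls over all comparisons 36 were kept under each of 20 alternatives that gave a value (17 planned and 3 added after seeing the data) and 21 were lost under 1 or more. The cause of the changes was not tested unless stated. Kept throughout were the *Hey1* and *Dll4* calls of venous-like cells, the *Hey1* call of arterial-like over capillary-like cells and the *Notch3* and *Heyl* calls of mural-like over endothelial-like cells, each in both regions. The counts of calls that moved by over 1.5 times are given next with the value reported above in brackets.

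With at most 4000 genes per cell, mural-like over endothelial-like cells in cortex gave 4 lower (2), astrocyte-like over progenitor-like cells in cortex 7 higher (2) and 0 lower (1), and pericyte-like cells 0 higher (2) and 2 lower (4) in hippocampus than cortex. A mitochondrial limit of 10% gave 1 lower (2) for mural-like over endothelial-like cells in cortex and 1 higher (0) for VSMC-like over pericyte-like cells in hippocampus, and leaving doublets out also gave 1 higher (0) there, as did adding 1 CPM and the mean of CPM per cell. Endothelial clustering at a resolution of 0.5 gave 1 higher (3) for arterial-like over capillary-like cells in hippocampus. With Notch genes allowed in clustering, venous-like over capillary-like cells in cortex gave 1 higher (0), astrocyte-like over progenitor-like cells in cortex 6 higher (2) and 0 lower (1) with the log2 ratio of *Jag2* reversed to 0.26 from -1.61, and pericyte-like cells 1 higher (2) in hippocampus. Classing single cells by their own markers, which left 37 and 25 venous-like cells, gave 7 and 6 higher (3 and 3) for arterial-like over capillary-like cells in cortex and hippocampus, 5 and 4 lower (2 and 2) for venous-like over capillary-like cells, 9 and 10 higher (5 and 5) for arterial-like over venous-like cells, 4 lower (2) for mural-like over endothelial-like cells in cortex, 6 higher (2) and 0 lower (1) for astrocyte-like over progenitor-like cells in cortex, 2 higher (0) for endothelial-like cells in hippocampus and 1 higher (2) and 2 lower (4) for pericyte-like cells there. Without mural-like cells over 1% endothelial marker UMIs, VSMC-like over pericyte-like cells in cortex gave 2 lower (5), mural-like over endothelial-like cells in cortex 4 lower (2), and pericyte-like cells 0 higher (2) and 1 lower (4) in hippocampus, where *Dll4* reversed to 0.21 from -1.82. The mean of CPM per cell gave 4 lower (2) for mural-like over endothelial-like cells in cortex and 0 higher (2) and 2 lower (4) for pericyte-like cells in hippocampus. Thinning cells to 1000 UMIs gave 4 lower (2) for mural-like over endothelial-like cells in cortex, 4 higher (2) and 0 lower (1) for astrocyte-like over progenitor-like cells in cortex, 4 lower (2) for venous-like over capillary-like cells in hippocampus and 1 higher (2) and 2 lower (4) for pericyte-like cells in hippocampus. Asking for at least 50 UMIs gave 1 lower (3) for VSMC-like over pericyte-like cells in hippocampus, since fewer genes were tried. Progenitor-like cells named by their own markers gave 6 higher (2) and 0 lower (1) in cortex. Leaving out 1 replicate at a time gave 0 to 1 higher (0) for venous-like over capillary-like cells and 2 to 4 higher (2) for astrocyte-like over progenitor-like cells in cortex, and 1 to 3 higher (2) for pericyte-like cells in hippocampus, the changes of over 1.5 times coming without replicate 3. Clustering cortical endothelial cells alone gave no capillary-like class, so 2 comparisons have no value under it. The size of the capillary-like class depended strongly on the processing. Classed by own markers it held 2757 cells in cortex and 1880 in hippocampus, from 555 and 433. With Notch genes allowed in clustering it held 421190 and 434832 UMIs, from 3120239 and 2181575. Classes of 1 region were compared within each library for the calls and for the SDs of log2 ratios. No paired test was made, since the libraries of a region come from 1 suspension. Replicate numbers do not pair libraries between regions.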
